A study of Homo sapiens with 10 samples.

Results

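NAALADL2 (gene ID 254827) was followed through the TRPS1 ChIP-seq peak list and 6 RNA-seq libraries of T47D cells. The gene was chosen by name and its peaks by position: every TRPS1 peak on chromosome 3 inside the gene or within 600 kb upstream of it. This gave 1 gene of 19695 symbols in the count tables and 9 peaks of 1844 in the list. The gene drew attention because it held 6 peaks and because the study named it among genes that responded to silencing, so the number of peaks and the direction of the RNA difference are descriptions, not independent evidence. For NAALADL2 and its neighbour NLGN1, the study also reported TRPS1 and CHD4 enrichment by ChIP-qPCR, with CHD4 enrichment lost after TRPS1 silencing. By RT-qPCR it reported higher RNA of both genes after each silencing. Those assays are not part of the data used here. T47D is an established human breast carcinoma line of luminal type that expresses oestrogen and progesterone receptors. The RNA-seq libraries came from T47D cells transfected for 72 h with control siRNA, TRPS1 siRNA or CHD4 siRNA, 2 libraries each. The sample labels give siRNA for the CHD4 group, while the methods of the study name an shRNA for the sequenced cells. The labels do not state that the 2 libraries of a group came from separate cultures, so the p-values measure the spread between these libraries, which may be technical.

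NAALADL2 encodes a single-pass membrane protein related to glutamate carboxypeptidase II (FOLH1, also known as prostate-specific membrane antigen) and to the transferrin receptors. Glutamate carboxypeptidase II cleaves glutamate from the dipeptide N-acetylaspartylglutamate and from folate polyglutamates, and the transferrin receptors share its fold without the peptidase activity. TRPS1 is an atypical GATA factor that acts as a repressor, and CHD4 is the ATPase of the NuRD complex, which couples nucleosome remodelling to histone deacetylation.

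The sequences below are those that tie NAALADL2 to the assays: the promoter window at its curated start, which lies just upstream of one of its peaks, and the 4 primers that the study designed for the gene. The promoter window covers chr3:174859084-174859383 on the + strand (RefSeq, GRCh38.p14, the assembly behind hg38), 250 bases before to 50 after the start at 174859334. Capitals mark the letters GATA or, for the other strand, TATC.
NAALADL2 promoter: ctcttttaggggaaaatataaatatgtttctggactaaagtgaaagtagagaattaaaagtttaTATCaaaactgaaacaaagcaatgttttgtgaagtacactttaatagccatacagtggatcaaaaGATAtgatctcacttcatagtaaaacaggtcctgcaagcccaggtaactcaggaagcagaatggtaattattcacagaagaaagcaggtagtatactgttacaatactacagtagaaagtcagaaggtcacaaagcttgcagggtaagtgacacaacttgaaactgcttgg
ChIP-qPCR forward primer: cccccaggtgactgtatttg
ChIP-qPCR reverse primer: gccctctggtgtctcttctt
RT-qPCR forward primer: caccaaagagcaatcgctgcaact
RT-qPCR reverse primer: tgaagatggagcatctgaagggca
The core letters GATA occurred 2 times in this window, 186 and 121 bases before the start. At least 1 occurrence was present in 49.71% of the 35116 promoter windows of the same length. The longer GATA-factor motif, WGATAR (GATA preceded by A or T and followed by A or G, searched on both strands, so that each match also holds GATA), had 0 matches in the NAALADL2 window and at least 1 in 24.97% of all windows. No primer matched the promoter window.

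NAALADL2 spans chr3:174440982-175810548 on the + strand in RefSeq GRCh38.p14, a length of 1370 kb, over all 23 annotated transcript models. Only 1 of the models is curated, and it starts at 174859334, 418.4 kb downstream of the outermost start. The 2 starts are called the long and the short start here. Counted from the long start, 6 TRPS1 peaks lay inside the gene and 3 upstream of it. Counted from the short start, 5 lay inside and 3 upstream within 600 kb, and the most distant upstream peak fell outside the window.

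The 9 peaks were spread over the locus rather than stacked at a start. The 1st peak (chr3:174125385-174125593, 209 bp) lay inside NLGN1, the gene of the synaptic adhesion protein neuroligin-1, and was 315.4 kb upstream of the long start. The 2nd peak (chr3:174355505-174355824, 320 bp) overlapped no annotated gene and was 85.16 kb upstream. The 3rd peak (chr3:174438569-174438895, 327 bp) ended 2087 bp before the long start, inside LOC105374226, and was the only one of the 9 within 5 kb of that start. From the short start the same peak was 420.4 kb away.

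Inside the gene, the 4th peak (chr3:174480697-174481382, 686 bp) lay 39.72 kb after the long start, in the stretch that only the longer transcript models cover. The 5th peak (chr3:174859840-174860092, 253 bp) began 506 bp after the short start and was thus proximal to the curated start, just beyond the promoter window printed above. The 6th (chr3:174949669-174950028, 360 bp) and 7th (chr3:174955424-174956371, 948 bp) formed the closest pair, 5.395 kb apart and 90.33 and 96.09 kb from the short start. The 8th (chr3:175127070-175127498, 429 bp) lay 267.7 kb from the short start. The 9th (chr3:175735961-175736204, 244 bp) stood apart, 608.5 kb beyond the 8th and 74.34 kb before the end of the gene. Except for the 5th, the peaks inside the gene were distal to both starts.

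Peak widths ranged from 209 to 948 bp with a median of 327 bp, against a median of 288 bp over all 1844 peaks. The 7th and the 4th were the widest, and were at least as wide as 99.13% and 96.85% of all peaks, themselves included. The 6 peaks inside the gene covered 2920 bp, or 0.2132% of its length. The nearest peaks outside the locus were 1429 kb before the 1st peak and 1045 kb past the end of the gene. Peak heights and enrichment were not used here because the deposited list holds positions alone, and it is one list for the TRPS1 antibody.

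**Figure D1:**
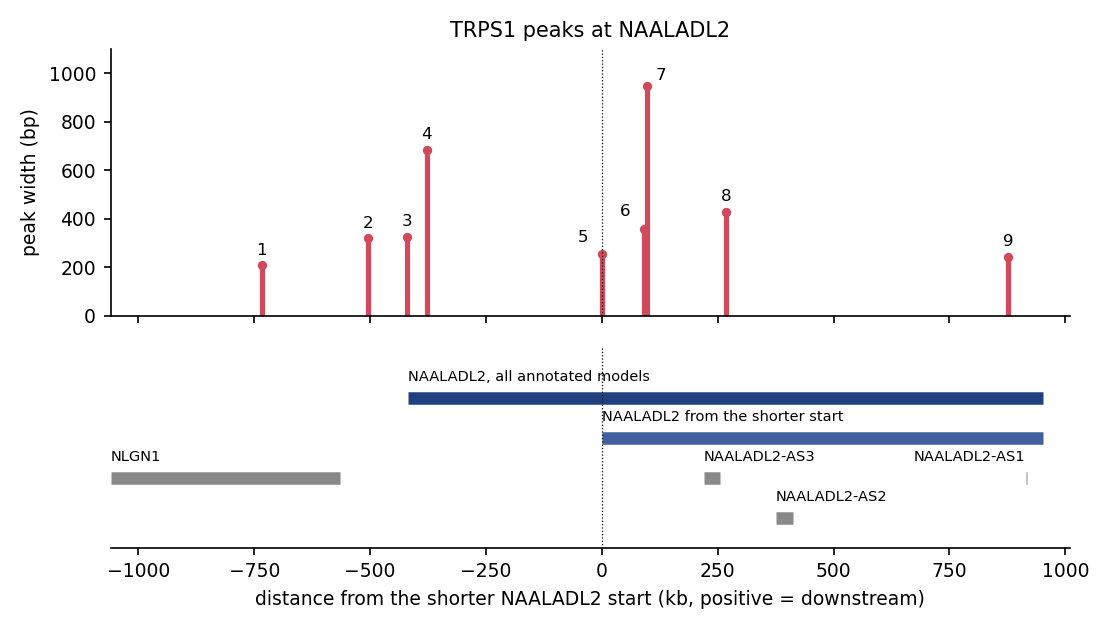
Width in bp (upper panel, vertical axis) of the 9 TRPS1 peaks against distance in kb from the short NAALADL2 start (horizontal axis, dotted line at 0), with annotated genes as bars in the lower panel; NLGN1 continues past the left edge. The 3rd and 4th peaks flank the long start, the 5th sits at the short start, and the 7th, of 948 bp, is the widest.

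Few genes held as many peaks. Of 59778 annotated genes, 1179 contained a TRPS1 peak and 144 contained more than 1. Only GSE1 with 12, AFF3 with 9 and DSCAM with 7 exceeded NAALADL2, and 1 further locus, LOC105373893, also held 6. NAALADL2 is among the longest human genes, so its peaks were set beside those of the 72 other genes over 1 Mb. Of these, 56 held no peak, 10 held 1 and 6 held 2. Peak density in NAALADL2 was 4.381 per Mb, against 0.221 per Mb over the 72 genes together and 1.803 per Mb in the densest of them. The shorter genes GSE1, AFF3, DSCAM and LOC105373893 were denser than NAALADL2, at 23.68, 15.07, 8.372 and 14.01 per Mb. From the short start NAALADL2 is under 1 Mb long and would fall outside this class. The gene was singled out by this number, so no test was made of it.

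**Figure D2:**
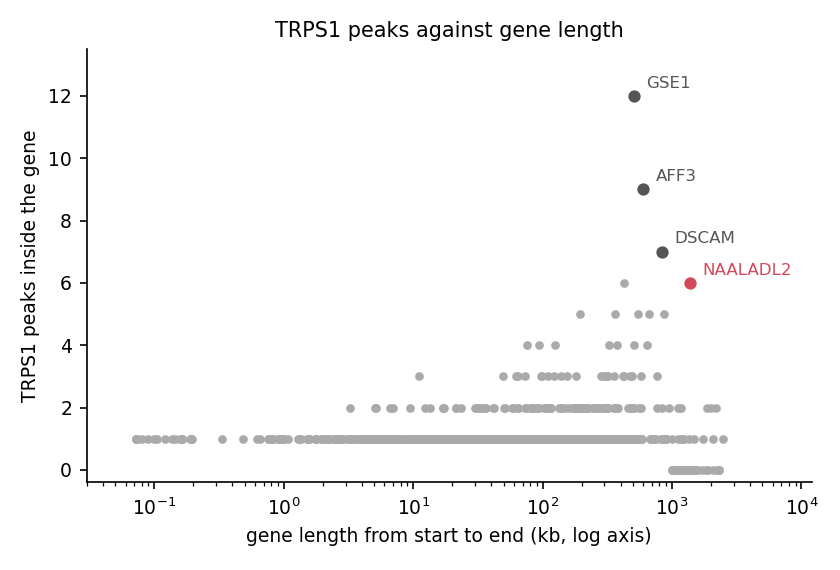
TRPS1 peaks inside each gene (vertical axis) against gene length in kb (horizontal axis, logarithmic), 1 point per annotated gene that holds a peak or exceeds 1 Mb. NAALADL2 holds 6 peaks, while no other gene over 1 Mb holds more than 2.

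The first question asked of the RNA-seq data was whether NAALADL2 RNA differed after silencing of TRPS1. NAALADL2 had 247 and 550 counts in the control siRNA libraries and 2127 and 2301 in the TRPS1 siRNA libraries. Scaled by TMM to CPM, that is counts relative to the library total after correction for composition, these were 18.05 and 41.43 against 204.4 and 151.1 CPM. Both TRPS1 siRNA libraries exceeded both control libraries, by 3.65-fold in the closest pair and 11.3-fold in the widest. The 2 control libraries differed from each other 2.3-fold and the 2 TRPS1 siRNA libraries 1.35-fold. Group means were 29.74 ± 16.54 CPM (SD, n = 2) and 177.8 ± 37.69 CPM (SD, n = 2). In bulk RNA, more cells with the transcript and more RNA per cell cannot be told apart.

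In edgeR's quasi-likelihood test the log2 fold change was 2.58 (SE 0.50, 95% interval 1.38 to 3.78), a 5.97-fold difference. The unadjusted p was 0.001664, and the Benjamini-Hochberg adjusted p over 12921 genes was 0.659 in edgeR, so the call did not pass the threshold. No gene passed in this comparison (0%), and 902 genes (6.98%) had an unadjusted p under 0.05. DESeq2 called 39 genes and edgeR's likelihood ratio test 34. NAALADL2 was 1 of 349 genes (2.7%) that were more than 2-fold higher with an unadjusted p under 0.05. Groups that did not overlap, with TRPS1 siRNA higher, occurred in 22.8% of all genes. Its log2 fold change ranked 65 of 12921, 5 of 685 among genes with a peak inside and 1 of 26 among genes over 1 Mb. NAALADL2 passed under DESeq2 (log2 fold change 2.57, adjusted p = 0.000526) and under edgeR's likelihood ratio test (2.58, adjusted p = 0.00415). Over 12 alternative fits the adjusted p ran from 0.000526 to 1 and was under 0.05 in 5.

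**Figure D3:**
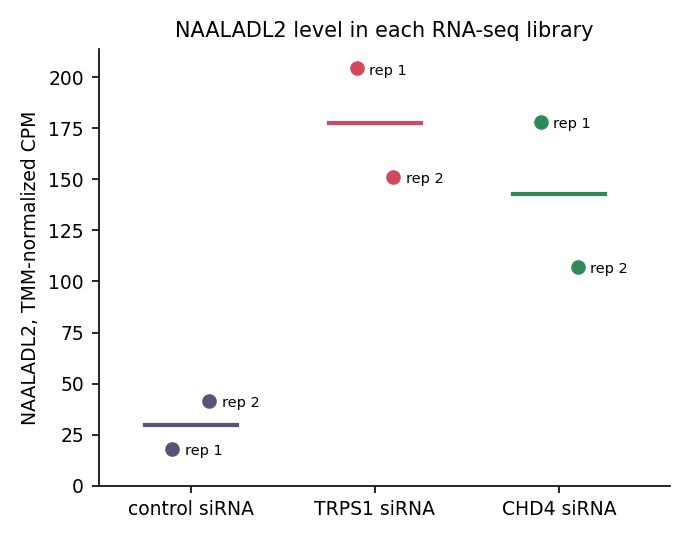
NAALADL2 level in TMM-normalized CPM (vertical axis) in each of the 6 RNA-seq libraries, with the mean of each group as a bar. All 4 silenced libraries lie between 107.1 and 204.4 CPM, above both control libraries at 18.05 and 41.43 CPM.

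The second question was whether silencing of CHD4 gave a difference too. NAALADL2 had 1907 and 1334 counts in the CHD4 siRNA libraries, or 178.1 and 107.1 CPM. Both exceeded both controls, from 2.58-fold in the closest pair to 9.87-fold in the widest, and they differed 1.66-fold from each other. The group mean was 142.6 ± 50.23 CPM (SD, n = 2). The log2 fold change against control siRNA was 2.26 (SE 0.53, 95% interval 1.03 to 3.50), a 4.8-fold difference. Its unadjusted p was 0.003099 and its adjusted p in edgeR 0.792, so the call did not pass here either. Again 0% of 12918 genes passed at an adjusted p under 0.05, with 769 (5.95%) at an unadjusted p under 0.05, while DESeq2 called 50 genes and the likelihood ratio test 58. NAALADL2 was among the 336 genes (2.6%) more than 2-fold higher with an unadjusted p under 0.05, and 19.9% of all genes had both CHD4 siRNA libraries above both controls. It ranked 132 of 12918 by log2 fold change, 8 of 682 among genes with a peak inside and 2 of 26 among genes over 1 Mb, behind NCKAP5. Under DESeq2 the adjusted p was 0.00485, and under edgeR's likelihood ratio test 0.0193, and it ran from 0.00194 to 1 over 12 alternative fits, with 5 under 0.05. Both comparisons use the same 2 control libraries and are not independent of each other.

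**Figure D4:**
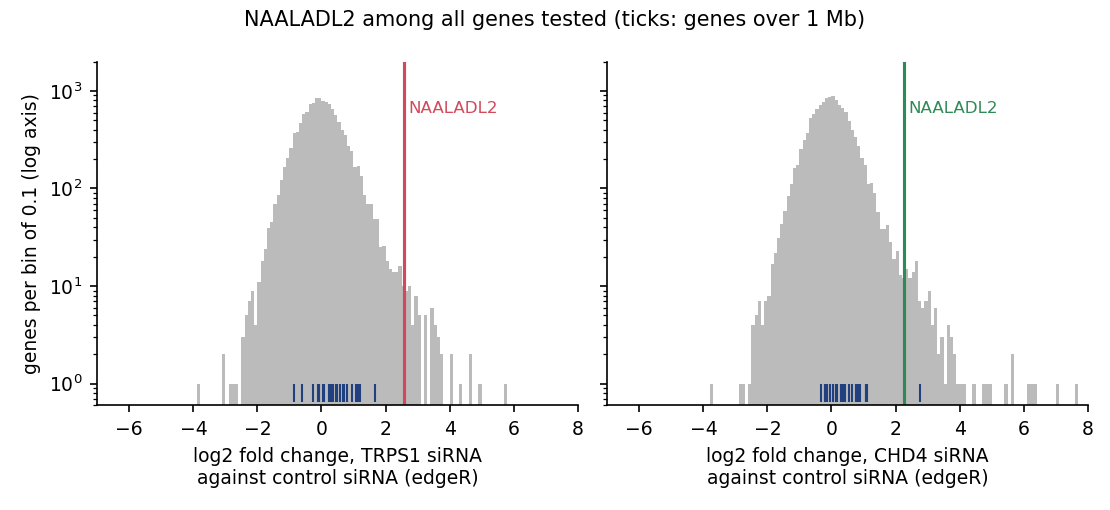
Number of genes (vertical axis, logarithmic) by edgeR log2 fold change (horizontal axis) for TRPS1 siRNA (left) and CHD4 siRNA (right) against control siRNA, with NAALADL2 as a vertical line and the other genes over 1 Mb as ticks. NAALADL2 lies in the upper tail at 2.58 and 2.26, right of all other genes over 1 Mb on the left and of all but 1 on the right.

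Ranked within each library, NAALADL2 stood near the middle of the expressed genes in control and nearer the top in the silenced cells. NAALADL2 ranked 8120 and 5394 of 13147 genes by CPM in the control libraries, above 38.18% and 58.9% of genes. In the TRPS1 siRNA libraries it ranked 805 and 1334, and in the CHD4 siRNA libraries 1018 and 2048. This rank does not use a scaling between libraries, although it is not a per-length level and a long transcript gathers more reads.

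The 2 silencing conditions were then compared directly. Without regard to replicate number, CHD4 siRNA libraries were not separated from TRPS1 siRNA libraries. Replicate 1 of the former (178.1 CPM) lay between the 2 TRPS1 siRNA libraries (151.1 and 204.4 CPM). Within replicates 1 and 2, CHD4 siRNA was at 0.871 and 0.709 times the TRPS1 siRNA level. The log2 fold change of CHD4 siRNA over TRPS1 siRNA was -0.31 (SE 0.28, 95% interval -1.0 to 0.39, adjusted p = 0.674 in edgeR over 13143 genes). The interval includes 0 and differences as large as its ends, so the data do not show that the 2 conditions act alike. In this comparison 0% of genes passed at an adjusted p under 0.05 in edgeR and 15.4% at an unadjusted p under 0.05, and DESeq2 called 456. Without CHD4 siRNA replicate 2 the log2 fold change was 0.03, with no change in the call. In order of mean level the groups were TRPS1 siRNA, CHD4 siRNA and control siRNA, and the libraries of the first 2 overlapped. The labels do not state that replicate numbers pair libraries, although replicate 1 deviations correlated at 0.615 between the TRPS1 and CHD4 siRNA groups. With the replicate number as a block, the NAALADL2 difference passed (adjusted p = 0.0219 in edgeR's quasi-likelihood test). That fit also called other genes, counted in the last section.

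Control siRNA replicate 1 stood apart from the other libraries. Its log2 CPM values correlated with those of the other 5 at r = 0.856 to 0.877 across genes, while all other pairs reached 0.941 to 0.977. It was also the library with the lowest NAALADL2 level. With that library left out, NAALADL2 had a log2 fold change of 2.10 for TRPS1 siRNA and 1.80 for CHD4 siRNA. Leaving out control siRNA replicate 2 instead gave 3.30 and 2.99. In each of these fits the lone control is assumed to vary like the other group, so effect sizes alone are given here.

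Other very long genes also tended to lower values in control siRNA replicate 1. The 25 other expressed genes over 1 Mb had a median log2 difference of -0.53 from control siRNA replicate 2 in that library, against -0.03 over all genes, and NAALADL2 was at -1.19. Set against control siRNA replicate 2 alone, the same 25 genes had medians of 0.25 and 0.30 in the TRPS1 siRNA libraries and 0.20 and -0.02 in the CHD4 siRNA libraries. NAALADL2 was at 2.30 and 1.86, and at 2.10 and 1.37, above every other gene over 1 Mb in both TRPS1 siRNA libraries. It was not so in the CHD4 siRNA libraries, where NCKAP5, which holds no TRPS1 peak, was at 2.10 and 2.13. The part of control siRNA replicate 1 in the result was not tested beyond these values.

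**Figure D5:**
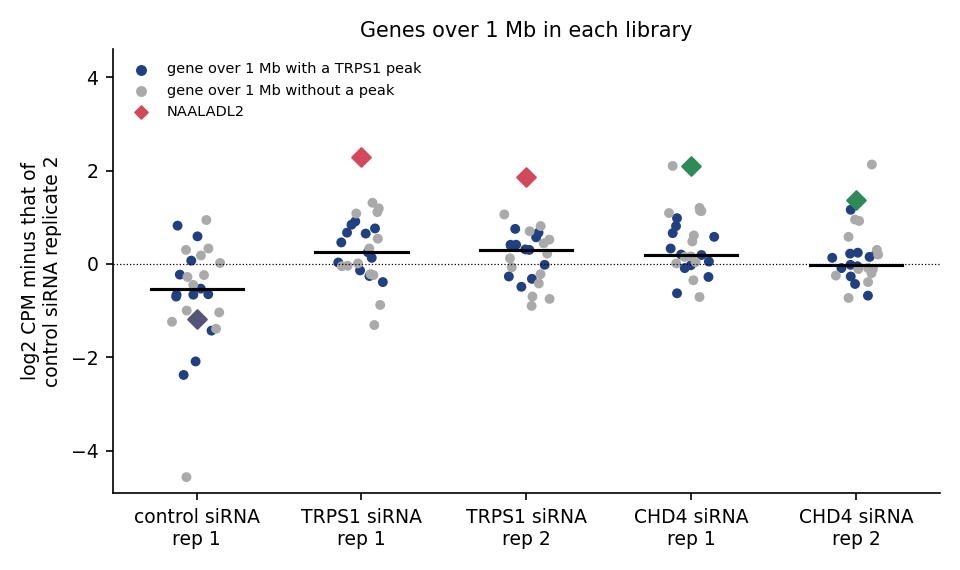
Log2 CPM minus that of control siRNA replicate 2 (vertical axis) in the other 5 libraries for genes over 1 Mb, coloured by whether they hold a TRPS1 peak, with medians as bars and NAALADL2 as diamonds in the colour of its group. The median is -0.53 in control siRNA replicate 1 and -0.02 to 0.30 elsewhere, while NAALADL2 lies between 1.37 and 2.30 in the 4 silenced libraries. NCKAP5, without a peak, is at 2.1 and 2.13 in the CHD4 siRNA libraries.

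Against control siRNA, 19 of the 25 other genes over 1 Mb had a positive log2 fold change with TRPS1 siRNA, with a median of 0.35, and 20 had one with CHD4 siRNA, with a median of 0.38. The median over all genes was -0.02 in both comparisons. None passed the adjusted threshold, and 2 and 1 genes, respectively, were more than 2-fold higher with an unadjusted p under 0.05, against 2.7% and 2.6% of all genes. Of the 16 other genes over 1 Mb that held a TRPS1 peak, 12 were expressed enough to test. Their log2 fold changes ranged from -0.26 to 1.21 with TRPS1 siRNA and from -0.21 to 1.11 with CHD4 siRNA, in every case below that of NAALADL2. The highest of the 25 in both comparisons was NCKAP5, which holds no TRPS1 peak, at 1.69 with TRPS1 siRNA and 2.75 with CHD4 siRNA.

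ERBB4, the receptor tyrosine kinase of the EGF receptor family, holds 2 peaks and had the highest value of the 12 with TRPS1 siRNA. It had 766 and 2004 counts in control, 2662 and 3411 in TRPS1 siRNA and 2834 and 2094 in CHD4 siRNA libraries. Its log2 fold changes were 1.21 (SE 0.51) and 1.07 (SE 0.53). They were 0.67 and 0.53 without control siRNA replicate 1, and 2.10 and 1.96 without control siRNA replicate 2. ROBO2, an axon guidance receptor, was at 1.13 (SE 0.41) and 0.65 (SE 0.49). DLG2, a synaptic scaffold gene, had 175 and 277 counts in control, 342 and 394 in TRPS1 siRNA and 210 and 192 in CHD4 siRNA libraries. CTNNA3, RBFOX1, MACROD2 and CSMD3 also held peaks and were too low to test.

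The other genes with the most peaks had smaller log2 fold changes than NAALADL2. GSE1, with 12 peaks, had log2 fold changes of -0.20 (SE 0.34) with TRPS1 siRNA and -0.09 (SE 0.37) with CHD4 siRNA. AFF3, a transcription elongation factor gene with 9, had 0.11 (SE 0.35) and -0.26 (SE 0.42). DSCAM, a neuronal adhesion molecule gene with 7, had 1637 and 1525 counts in control and 2322 and 2595 in TRPS1 siRNA libraries. In CHD4 siRNA libraries it had 2841 and 1904. Its groups did not overlap in either comparison, as in 22.8% and 19.9% of all genes in that direction. Its log2 fold changes were 0.75 (SE 0.33) and 0.84 (SE 0.40). Among genes with 3 or more peaks, NAALADL2 had the largest log2 fold change of 29 tested with TRPS1 siRNA and of 28 tested with CHD4 siRNA. None of these passed the adjusted threshold, and differences between genes were not tested.

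The neighbourhood of NAALADL2 was sparsely expressed. Of 93 annotated genes within 3 Mb, 17 were in the count tables, and 9 were tested with TRPS1 siRNA and 10 with CHD4 siRNA. None passed at an adjusted p under 0.05 or was more than 2-fold changed at an unadjusted p under 0.05. The median log2 fold change was -0.21 with TRPS1 siRNA and 0.16 with CHD4 siRNA, with 3 of 9 and 6 of 10 positive.

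NLGN1, whose end lies 146.6 kb upstream and which holds the 1st peak, had 41 and 56 counts in control, 82 and 127 in TRPS1 siRNA and 90 and 99 in CHD4 siRNA libraries. Its groups did not overlap, as in 22.8% of all genes in that direction with TRPS1 siRNA and 19.9% with CHD4 siRNA. Its log2 fold changes were 1.17 (SE 0.52, unadjusted p = 0.06436 in edgeR) and 1.18 (SE 0.57, unadjusted p = 0.07543 in edgeR). It was the highest of the tested neighbours with TRPS1 siRNA. Its antisense gene NLGN1-AS1 had at most 2 counts in any library.

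Inside NAALADL2, the antisense gene NAALADL2-AS2 had 0 and 11 counts in control and 9 to 18 in the silenced libraries, too few to test. The counting is not stated to use strand. If it did not, antisense reads over NAALADL2 exons could not be told apart from those of NAALADL2, although NAALADL2-AS2 has counts of its own. Downstream, the noncoding gene LINC01208 had at most 7 counts in any library. LINC01209, 1004 kb past the end, had 0 and 22 counts in control, 16 and 8 in TRPS1 siRNA and 36 and 45 in CHD4 siRNA libraries. TBL1XR1, a subunit of the NCoR and SMRT corepressor complexes 1209 kb downstream with 2 peaks of its own, had 4748 and 10697 counts in control, 5893 and 7193 in TRPS1 siRNA and 9353 and 9502 in CHD4 siRNA libraries, with overlapping groups in both comparisons. NCEH1, a cholesterol ester hydrolase gene upstream that also holds 2 peaks, had 1177 and 1138 counts in control, 563 and 761 in TRPS1 siRNA and 724 and 990 in CHD4 siRNA libraries, lower than both controls in all 4. Both silenced libraries were below both controls in 21.3% of all genes with TRPS1 siRNA and 19.8% with CHD4 siRNA. Over all tested neighbours the log2 fold changes ranged from -0.86 to 1.17 with TRPS1 siRNA, with NLGN1 and KCNMB2 highest, and from -0.54 to 2.07 with CHD4 siRNA, with TNIK lowest and LINC01209 highest. KCNMB2 had 0 counts in control siRNA replicate 1 and 76 in replicate 2, and like LINC01209 it was thus at 0 in 1 of the 2 controls.

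NAALADL2 was the only member of the glutamate carboxypeptidase branch with substantial counts. FOLH1 had 0 to 5 counts in the 6 libraries, NAALADL1 had 0 to 5, and NAALAD2, the closest relative of FOLH1 in its peptidase activity, had 8 to 37. With 3 counts as the limit of detection, which corresponds to 0.197 to 0.2883 CPM, FOLH1 and NAALADL1 were at or near that limit throughout. Family members other than NAALADL2 that could be tested against control were the transferrin receptors.

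TFRC, which imports transferrin-bound iron, had 18459 and 49186 counts in control, 14035 and 21197 in TRPS1 siRNA and 36118 and 36840 in CHD4 siRNA libraries. Its log2 fold changes were -0.88 (SE 0.50) and 0.33 (SE 0.49), with overlapping groups in both comparisons. Between the silencing conditions its groups did not overlap, as in 22.7% of all genes in that direction, and the log2 fold change of CHD4 siRNA over TRPS1 siRNA was 1.22 (SE 0.20, adjusted p = 0.101 in edgeR). TFR2, the hepatic iron sensor, had 14 to 49 counts.

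More distant relatives of the M28 peptidase family were counted next. Of the 5 genes CPQ, QPCT, QPCTL, ERMP1 and NCLN, none passed the adjusted threshold, and the median log2 fold change was 0.30 with TRPS1 siRNA and 0.46 with CHD4 siRNA. QPCTL, the Golgi glutaminyl cyclase, had 292 and 157 counts in control, 80 and 91 in TRPS1 siRNA and 83 and 61 in CHD4 siRNA libraries. It was lower in both, at -1.28 (SE 0.49) and -1.39 (SE 0.54), and was the only one of the 5 more than 2-fold lower with an unadjusted p under 0.05, against 3.17% and 2.85% of all genes. Without control siRNA replicate 1 its log2 fold changes were -0.80 and -0.89. The other 4 reached at most 0.93 with TRPS1 siRNA and 0.94 with CHD4 siRNA, both of them QPCT, the secreted cyclase.

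Genes that make, move, sense or split N-acetylaspartylglutamate and N-acetylaspartate were also counted. Of 9 genes, 8 were measured and 5 tested against control, with median log2 fold changes of 0.25 for TRPS1 siRNA and 0.50 for CHD4 siRNA and no adjusted call. GRM3, the glutamate receptor that the dipeptide activates, had 0 to 5 counts. SLC13A3, a sodium-coupled dicarboxylate carrier that takes up N-acetylaspartate, had 193 and 128 counts in control, 228 and 149 in TRPS1 siRNA and 663 and 377 in CHD4 siRNA libraries. Its log2 fold changes were 0.41 (SE 0.52) and 1.96 (SE 0.50, unadjusted p = 0.00519 and adjusted p = 0.792 in edgeR), so it was 1 of the 2.6% of genes past 2-fold in CHD4 siRNA at that unadjusted threshold. NAT8L, which makes N-acetylaspartate, had 251 to 420 counts in the 6 libraries. It and the ligases RIMKLA and RIMKLB, which join N-acetylaspartate to glutamate, had log2 fold changes between -0.23 and 0.69 with TRPS1 siRNA, and none was called.

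The genes whose log2 CPM followed NAALADL2 most closely over the 6 libraries were PRKG2 (Pearson r = 0.997), CCT6B (0.996), CHRM3 (0.994), HSP90B1 (0.993) and ZNF75A (0.993). The coefficients describe 6 points that share 3 groups and their libraries, and 201 of 13146 genes exceeded 0.95, so no test was made. None of the 5 held a TRPS1 peak, and only 685 of the 12921 genes tested with TRPS1 siRNA held one. PRKG2, a cGMP-dependent protein kinase, had 6 and 14 counts in control, 58 and 76 in TRPS1 siRNA and 61 and 42 in CHD4 siRNA libraries, a log2 fold change of 2.81 (SE 0.72) and 2.59 (SE 0.82). CCT6B, a chaperonin subunit, was at 2.42 (SE 0.66) and 1.98 (SE 0.75). HSP90B1, the HSP90 chaperone of the endoplasmic reticulum and the most abundant of the 5, had 9119 and 13328 counts in control and 18187 to 25415 in the silenced libraries, with log2 fold changes of 1.11 (SE 0.34) and 1.08 (SE 0.39). CHRM3, a muscarinic receptor, was at 0.88 (SE 0.56) and 0.88 (SE 0.63), and ZNF75A at 0.77 (SE 0.36) and 0.74 (SE 0.39). None passed the adjusted threshold.

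Each silenced factor was below both controls in both libraries of its own condition. So were 21.3% of all genes with TRPS1 siRNA and 19.8% with CHD4 siRNA, so this alone does not check the labels. TRPS1 had 19723 and 30078 counts in control, 12160 and 10996 in TRPS1 siRNA and 26252 and 19786 in CHD4 siRNA libraries, with a log2 fold change of -0.97 (SE 0.39, adjusted p = 0.659 in edgeR) in its own silencing and 0.13 (SE 0.40) in that of CHD4. CHD4 had 4099 and 3784 counts in control, 3151 and 4091 in TRPS1 siRNA and 1026 and 677 in CHD4 siRNA libraries, with -1.96 (SE 0.42, adjusted p = 0.784 in edgeR) in its own silencing and -0.03 (SE 0.31) in that of TRPS1. Neither passed the adjusted threshold. In CPM, TRPS1 was at 1441 and 2266 in control and 1169 and 722.1 in TRPS1 siRNA libraries, 0.509-fold in the fit. CHD4 was at 299.5 and 285.1 CPM in control and 95.83 and 54.34 CPM in CHD4 siRNA libraries, 0.257-fold in the fit. GATA3, the typical GATA factor of luminal cells, was at -0.48 (SE 0.43) and -0.88 (SE 0.46). Pearson r with NAALADL2 over the 6 libraries was -0.229 for TRPS1, -0.331 for CHD4 and -0.601 for GATA3.

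Total counts were 10333138 to 14668358 per library, and the lowest NAALADL2 count was 247. All 7 luminal markers were expressed, with a median log2 fold change of -0.61 in both comparisons against control and no adjusted call. The median over all genes was -0.02 in both. Of the 7, 6 were negative with TRPS1 siRNA and 5 with CHD4 siRNA. EPCAM was positive in both, at 0.37 (SE 0.41) and 0.28 (SE 0.43), and FOXA1 with CHD4 siRNA, at 0.21 (SE 0.38). KRT8, which holds 1 TRPS1 peak, was lowest at -1.88 (SE 0.35) and -1.85 (SE 0.37). KRT18 followed at -0.92 (SE 0.33) and -1.45 (SE 0.38). The basal keratins KRT5 and KRT14 and the leukocyte genes PTPRC and CD3E had at most 6 counts in any library where they are listed. The same held for the fibroblast gene COL3A1 and the endothelial gene PECAM1. COL1A1, a fibroblast collagen gene, had 738 to 2134.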

How the data were processed

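T47D cells were profiled by TRPS1 ChIP-seq and by RNA-seq of ribosomal RNA-depleted RNA. The authors deposited gene counts made with HTSeq 0.9.0, as 2 tables that each pair a silencing with the same controls, and peak positions on hg38 called with MACS2 2.1.1 from reads aligned with BWA 0.7.12-r1039. The ChIP-seq samples were 2 TRPS1 and 2 input libraries, and both TRPS1 samples name the same peak list. How that list combines the replicates, and whether counting used strand, is not given in the sources used here. The ChIP-seq inputs have no table of their own and were not analysed here.

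Counts were tested with edgeR 4.0.16 in R 4.3.3 (TMM scaling, quasi-likelihood F-test, genes over 2 CPM in at least 2 of 4 libraries, Benjamini-Hochberg adjustment over all genes tested, threshold 0.05), separately for each pair of groups. DESeq2 1.42.0, the likelihood ratio test, other scalings and filters, a replicate block and leaving out each library were alternatives, and the fits were tested on simulated data. Fold changes use edgeR's fitted values with a prior count of 0.125, and similarity of pattern used a prior count of 2. CPM levels share 1 TMM scaling over the 6 libraries. With 2 against 2 libraries the smallest exact permutation p is 0.333, so no such test was used. Gene spans and the promoter window came from RefSeq GRCh38.p14, to which 17801 of 19695 symbols matched. Intervals are at 95%, and the limit of detection of 3 counts covers counting error only.

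NAALADL2, its peaks, the gene lists and the tests were chosen with earlier results of these data known. Named genes were NAALADL2, the silenced genes and GATA3, genes overlapping it and the 3 nearest measured on each side, its protein family, the 2 largest and 2 smallest fold changes of the N-acetylaspartylglutamate and locus lists, the 5 genes most like it in pattern, genes over 1 Mb with a peak and the genes with most peaks. QPCTL and the other distant relatives, NCKAP5 and the marker genes were named outside that rule, after their values were seen. One neighbouring gene under the rule is not reported here.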

Additional observations from a re-analysis of the deposited data

How the results depend on the processing

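NAALADL2 kept a positive log2 fold change in both silencings under each alternative that was run, while the adjusted call changed between them. For TRPS1 siRNA it passed at 2.57 under DESeq2, 2.58 under the likelihood ratio test and 2.68 with the replicate block. For CHD4 siRNA it passed at 2.27, 2.26 and 2.33 under the same 3 and at 2.24 with no filter on low counts. Leaving out 1 library gave 2.10 to 3.30 for TRPS1 siRNA and 1.80 to 2.99 for CHD4 siRNA. The direct comparison ranged from -0.73 to 0.03, reversing without CHD4 siRNA replicate 2, and was -0.34 and called with the replicate block. Genes called at the adjusted threshold, 0 in each comparison, became 39, 50 and 456 (TRPS1, CHD4 and direct) under DESeq2, 34, 58 and 570 under the likelihood ratio test, and 32, 44 and 3372 with the replicate block. With no filter 111 (CHD4) and 33 (direct) were called, and leaving out 1 library gave 0 to 6070, 0 to 3874 and 0 to 103. The labels do not state that replicate numbers pair the libraries. Deviations of replicate 1 correlated at 0.0555 and 0.0081 between control and the TRPS1 and CHD4 groups, so control was not shown to pair with either. Between the TRPS1 and CHD4 groups they correlated at 0.615, so a pairing there is possible and was not tested. Genes more than 2-fold higher at an unadjusted p under 0.05 numbered 635 and 730 with no filter, 741 and 582 with the block, and 32 to 2457 and 40 to 2255 with 1 library left out. Lower genes numbered 724 and 673 with no filter, 254 and 222 by library sizes alone, and 42 to 1847 and 51 to 1714 with 1 library left out. With no filter, when more low genes were tested, list medians became 0.57 for the locus (TRPS1), 0.32 and 0.96 for the protein family (TRPS1, CHD4) and 0.86 and 0.78 for genes over 1 Mb. Leaving out 1 library, medians ran from -1.43 to 0.02 and 0.09 to 0.45 for the family, 0.30 to 0.74 for genes over 1 Mb (TRPS1) and 0.31 to 1.02 for the N-acetylaspartylglutamate list (CHD4). Changes of sign also occurred in genes that were not called, TFRC among them. With TRPS1 siRNA, CHD4 was 0.09 by library sizes alone and 0.01 with over 2 CPM in every library, and CHD4 ran from -0.10 to 0.06, GATA3 from -0.92 to 0.15, TFRC from -1.43 to 0.02, SLC13A3 from -0.26 to 0.89, GSE1 from -0.43 to 0.05 and AFF3 from -0.09 to 0.35 when 1 library was left out. With CHD4 siRNA, GSE1 was 0.03 by library sizes alone, and with 1 library left out TRPS1 ran from -0.20 to 0.49, TFRC from -0.21 to 1.24, GSE1 from -0.36 to 0.17 and AFF3 from -0.71 to 0.12. Counting peaks inside the gene from the short start gave 5, an alternative chosen after seeing the data. The cause of these differences was not tested. With 2 libraries a group, the spread between libraries rather than the counting error limits the NAALADL2 values.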
